A study of Homo sapiens with 6 samples.

Results

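The genes described here encode 6 laminin chains and the parts of the hemidesmosome that bind laminin to the keratin filaments. They are 9 of the 20381 genes in the deposited table, and all 9 were among the 11958 genes with enough counts to be tested. The laminin chain genes are *LAMA3*, *LAMB3*, *LAMA5*, *LAMB1*, *LAMB2* and *LAMC1*, and the hemidesmosome genes are *ITGA6*, *ITGB4* and *PLEC*. They were selected on earlier results of this same comparison of PON1-OE with NC, so their differences between the groups are given as a description and not as a test.

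Laminins are heterotrimers of an α, a β and a γ chain that build the sheet of the basement membrane. Laminin-332, whose α and β chains come from *LAMA3* and *LAMB3*, is the laminin to which epithelial cells anchor through hemidesmosomes. There the integrin made of *ITGA6* and *ITGB4* binds laminin outside the cell, and plectin, encoded by *PLEC*, ties the long cytoplasmic tail of the β4 subunit to keratins. In liver, the normal hepatocyte has little basement membrane, while hepatocellular carcinoma (HCC) cells are known to deposit and bind laminins.

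The RNA came from HCCLM3 cells, a human HCC line of high metastatic potential in which *PON1* is little expressed, and was sequenced after poly(A) selection. *PON1* encodes paraoxonase 1, an esterase that the liver secretes into blood on high-density lipoprotein. The cells had been infected with lentivirus carrying the *PON1* coding sequence (PON1-OE) or were the negative control (NC), and both were selected with puromycin. There were 3 libraries in each group. The series' design text and the methods of the paper name different serum contents for the medium. The former also gives a lysis time after transfection, where the latter name a stable line. The origin of the replicates (separate infections, cultures or extractions) is not given in the sources used here, so n counts libraries, and every SD and p-value measures only the spread between these libraries.

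The estimated counts of a library summed to 15706672 to 17948383. *PON1* had 0, 2 and 3 counts in the NC libraries against 155, 181 and 167 in the PON1-OE libraries, so the labels held for every library. Levels are given in CPM, counts scaled to the same library total for every sample, after TMM normalization, which adjusts the totals so that most genes match. Of the liver markers, *HNF4A*, a transcription factor of hepatocytes, was at 79.4 CPM, but *ALB* (albumin) was at 0.517 CPM, *AFP* at 0.723 CPM, and *APOA1*, *TTR* and *SERPINA1* were near 0. *FGB* was at 0.842 CPM. *APOB* was at 5.77 ± 0.786 CPM in NC against 4.49 ± 0.643 CPM in PON1-OE (SD, n = 3). Its ranges overlapped, and it was lower at an unadjusted p under 0.05 in the quasi-likelihood fit of edgeR. No liver marker had an adjusted p under 0.05. The liver list, most of it *HNF4A*, summed to 81.7 to 89.3 CPM in NC compared with 85.1 to 88.9 CPM in PON1-OE. Among markers of other cell types, *CD68* of macrophages was at 225 CPM, *PECAM1* and *KDR* of endothelium at 14.1 and 10.1 CPM, and *LUM* and *DCN* of fibroblasts at 13.3 and 4.69 CPM, while *PTPRC*, *CD3E*, *PDGFRA* and *EMCN* were at 0 in all 6 libraries. The remaining fibroblast markers, *COL1A1*, *COL1A2*, *COL3A1* and *PDGFRB*, had at most 4 counts in any library.

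The promoter letters are shown first for *LAMA3* and *LAMB3*, the pair of laminin-332 genes among the members, because these are, of the members with an entry in the promoter table, the ones with letters of the AP-1 motif next to a start site. AP-1 is the family of JUN and FOS transcription factors, known to act on epithelial laminin genes. The motif was searched as TGANTCA, which reads the same on both strands, in the 250 bases before each annotated start (RefSeq, GRCh38.p14). Of the members, 7 had an entry, with 10 windows between them, and *ITGB4* and *PLEC* had none. A match was found in 2 of these 7 genes, against 8.06% of 27305 genes with a window, and 6.57% of all 35116 windows held one. The stretches follow from 5′ to 3′ on the strand of the gene, with the motif in capitals.
LAMA3, chr18:23872884-23872913, plus strand: ctggcacaggcTGACTCAtgtgtgaagttt
LAMA3, chr18:23872940-23872969, plus strand: ccttcctcaccTGAGTCAggcaggcccggg
LAMB3, chr1:209651395-209651624, minus strand: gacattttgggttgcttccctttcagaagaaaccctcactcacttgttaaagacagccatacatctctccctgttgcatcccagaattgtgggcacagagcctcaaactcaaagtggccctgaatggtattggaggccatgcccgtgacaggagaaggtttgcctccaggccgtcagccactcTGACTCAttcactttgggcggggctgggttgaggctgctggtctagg

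In *LAMA3* the motif began 125 and 69 bases before the start at position 23873020, and both stretches lie in exonic bases of another transcript of the gene. This start lies inside the gene, and no window covered the 5′ end of the gene at 23689443. In *LAMB3* it began 67 bases before the start at position 209651374, and the 230 bases shown overlap no annotated exon of *LAMB3*. The stretch was cut where an annotated exon of the gene begins, so the last 20 bases before this start are not shown. The windows of the other 2 *LAMB3* starts held no match. The GC box letters GGGCGG or CCGCCC, known to be bound by SP1, occurred in 9 of the 10 member windows and in 42.6% of all windows. A match describes letters and is not a binding site, and no binding was measured in these cells.

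Of the 9 members, 3 passed an adjusted p of 0.05 when edgeR's quasi-likelihood fit was run across all genes, namely *LAMB3*, *ITGB4* and *PLEC*. This was the case for 0.677% of all genes tested. All 3 were higher in PON1-OE, where 0.502% of all genes had that direction with an adjusted p under 0.05. No member passed in addition the threshold on the log2 fold change named in the study's methods, against 0.0502% of all genes. An unadjusted p under 0.05 was found for 7 members, 6 of them higher in PON1-OE and 1 lower, and for 11.1% of all genes. The 3 libraries of one group lay wholly apart from those of the other for 6 members, against 16.1% of all genes. Of these, 5 members lay higher in PON1-OE, against 8.32% of all genes, and *LAMB1* lay lower. Since the members were chosen in view of this contrast, nothing is read from these counts.

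The median log2 fold change (PON1-OE minus NC) of the members was 0.097, and that of all genes tested was -0.0025. The fitted log2 fold change was above 0 for 7 of the 9. The summed CPM of the members was 3595 to 3776 in NC and 4049 to 4118 in PON1-OE. Most of this sum was *PLEC*. In bulk RNA a change in the RNA per cell and a change in the share of cells that make it cannot be told apart.

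**Figure D1:**
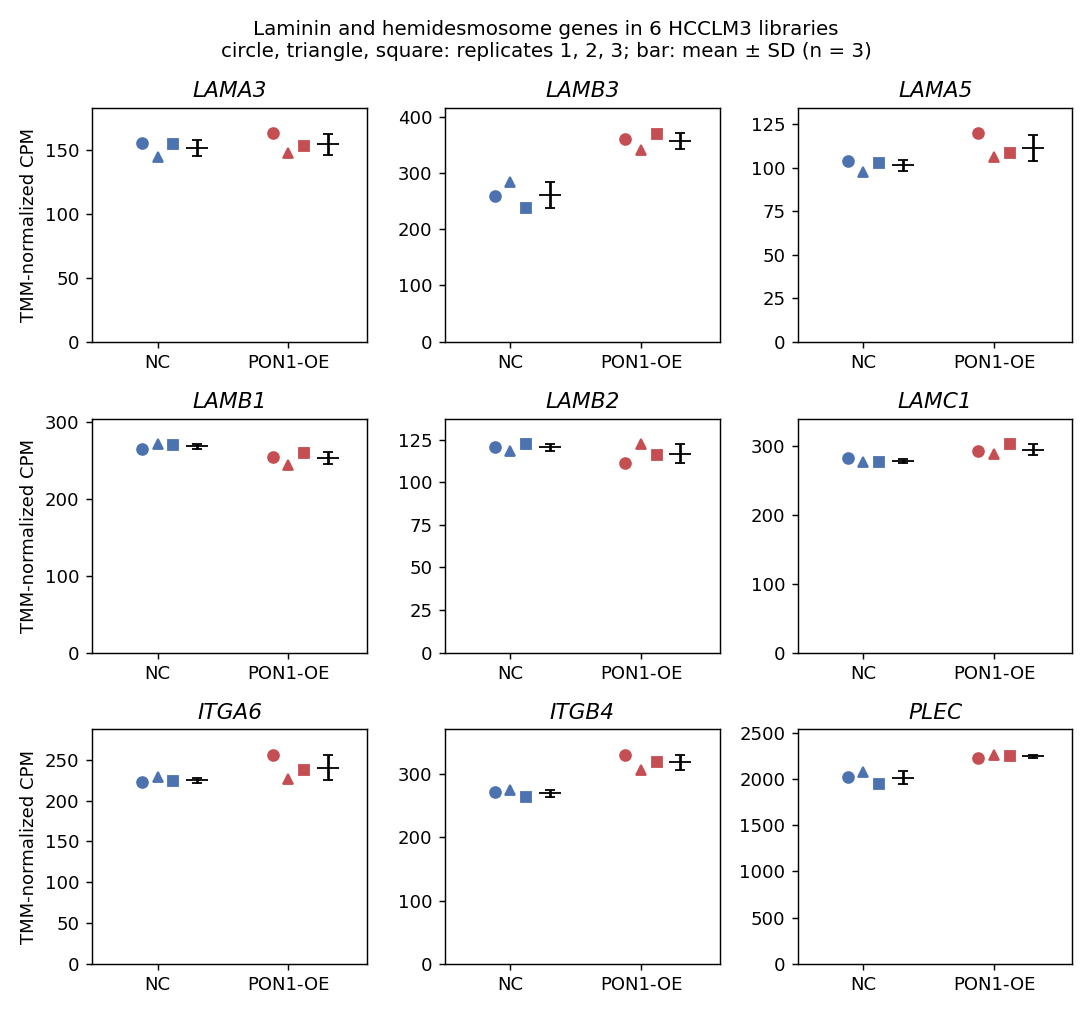
TMM-normalized CPM (vertical axes, starting at 0) of the 9 genes in each of the 3 NC and 3 PON1-OE libraries, with the mean and SD (n = 3) beside the points. *LAMB3* shows the highest ratio of the group means, with 238 to 284 CPM in NC against 341 to 370.02 CPM in PON1-OE, while the points of *LAMA3*, *LAMB2* and *ITGA6* overlap.

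*LAMB3* encodes the β3 chain, which is found only in laminin-332 and its variants. The gene (ENSG00000196878) lies at 1:209614870-209652466 on the minus strand of GRCh38, and its longest coding transcript has 22 exons. Its level was 259.7, 284 and 238 CPM in the NC libraries and 359.7, 341 and 370.02 CPM in the PON1-OE libraries. The 3 PON1-OE values were close to one another and lay above all 3 NC values, which were spread more widely. The means were 261 ± 22.7 and 357 ± 14.9 CPM (SD, n = 3), 36.9% higher in PON1-OE. The log2 fold change was 0.45 (SE 0.0495, 95% interval 0.35 to 0.56). It was the largest difference among the members, and its call was kept under all 12 alternative fits, 6 of which left out 1 library, with log2 fold changes of 0.39 to 0.52.

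*LAMA3* encodes the α3 chain with which β3 assembles, and it lies at 18:23689443-23956222 on the plus strand (ENSG00000053747). Its level was 155, 144 and 155 CPM in NC compared with 163, 147 and 153 CPM in PON1-OE. The ranges overlapped, and no order between the groups was visible. The means were 151 ± 6.15 and 155 ± 8.19 CPM, with a log2 fold change of 0.031 (SE 0.0466, 95% interval -0.066 to 0.13). The gene has 10 coding transcripts in the annotation, among them a long form with the full short arm and a shorter form, and the table does not separate them. The upper end of this interval lies below the lower end of that of *LAMB3*, and the *LAMB3* to *LAMA3* ratio of levels per kb was 4.28 ± 0.540 in NC and 5.72 ± 0.271 in PON1-OE, with no overlap. With the shorter coding transcript of *LAMA3* the ratio was 2.28 ± 0.287 in NC and 3.04 ± 0.144 in PON1-OE.

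*LAMA5* encodes the α5 chain of the widespread laminin-511 and lies at 20:62307955-62367312 on the minus strand (ENSG00000130702). Its level was 104, 97.6 and 103 CPM in NC against 120.1, 106 and 108 CPM in PON1-OE. PON1-OE replicate 1 stood highest, and the lowest PON1-OE value lay just above the highest NC value. The means were 101 ± 3.33 and 112 ± 7.49 CPM, with a log2 fold change of 0.14 (SE 0.0515, 95% interval 0.032 to 0.25). It was 0.086 without PON1-OE replicate 1. Its exons share 244 bases with *ADRM1* on the other strand, and whether the counting used strand is not given in the sources used here.

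*LAMB1* and *LAMB2* encode the β chains of the general laminins and were the only members with a log2 fold change below 0. *LAMB1* (ENSG00000091136, 7:107923799-108003255, minus strand) was at 264, 271 and 269.7 CPM in NC compared with 254, 244 and 259.6 CPM in PON1-OE. All 3 PON1-OE values lay below the NC values, which differed little from one another. The means were 268 ± 3.52 and 252 ± 7.79 CPM, with a log2 fold change of -0.087 (SE 0.0375, 95% interval -0.165 to -0.0092). *LAMB1* shares 70 exonic bases with *DLD* on the other strand. *LAMB2* (ENSG00000172037, 3:49121114-49133118, minus strand) was at 120.5, 119 and 122 CPM in NC against 111, 123 and 116 CPM in PON1-OE. These ranges overlapped, with means of 120.5 ± 1.93 and 117 ± 5.64 CPM and a log2 fold change of -0.046 (SE 0.0463, 95% interval -0.14 to 0.050). Leaving out the first PON1-OE library gave -0.010 and leaving out the second gave -0.083.

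*LAMC1* encodes γ1, the γ chain that most laminins share, and lies at 1:183023460-183145592 on the plus strand (ENSG00000135862). Its level was 282, 278 and 277 CPM in NC compared with 293, 289 and 304 CPM in PON1-OE. The groups lay apart by a small margin, and both were tight. The means were 279 ± 2.91 and 295 ± 7.79 CPM, 5.83% higher in PON1-OE, with a log2 fold change of 0.082 (SE 0.0364, 95% interval 0.0060 to 0.158).

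Of the 2 integrin subunits, *ITGA6* encodes α6, which pairs with β4 in hemidesmosomes and with β1 elsewhere. The gene (ENSG00000091409, 2:172427354-172506282, plus strand) was at 222, 229 and 224 CPM in NC against 257, 227 and 238 CPM in PON1-OE. PON1-OE replicate 2 lay among the NC values, and PON1-OE replicate 1 stood above the rest. The means were 225 ± 3.24 and 240.5 ± 14.9 CPM, with a log2 fold change of 0.097 (SE 0.0430, 95% interval 0.0075 to 0.187). Without PON1-OE replicate 1 the log2 fold change was 0.051.

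*ITGB4* encodes β4, which pairs with α6 alone. It lies at 17:75721328-75757818 on the plus strand (ENSG00000132470). Its level was 271, 275 and 264 CPM in NC compared with 331, 307 and 320.2 CPM in PON1-OE. Every PON1-OE value lay above every NC value, and the gap was wider than the range of either group. The means were 270.4 ± 5.48 and 319 ± 11.9 CPM, 18.2% higher in PON1-OE, with a log2 fold change of 0.24 (SE 0.0381, 95% interval 0.161 to 0.32). The call was kept under 11 of 12 alternatives and was lost without NC replicate 3, where the log2 fold change was 0.225. The *ITGB4* to *ITGA6* ratio of levels per kb was 1.14 ± 0.0185 in NC and 1.26 ± 0.0325 in PON1-OE, and these values did not overlap.

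*PLEC* encodes plectin and lies at 8:143915147-143976734 on the minus strand (ENSG00000178209). It was the most abundant member, with rank 29 of the 11958 genes tested by mean CPM. Its level was 2017, 2080.4 and 1943 CPM in NC against 2229, 2265 and 2245 CPM in PON1-OE. The PON1-OE values were within a narrow band above all NC values. The means were 2014 ± 69.0 and 2246 ± 17.9 CPM, 11.6% higher in PON1-OE, with a log2 fold change of 0.16 (SE 0.0314, 95% interval 0.0926 to 0.223). The call was lost when NC replicate 1 (log2 fold change 0.159), the third NC replicate (0.133) or the third PON1-OE replicate (0.159) was left out, and under a replicate block (0.158), and it was kept under 8 of 12 alternatives. Plectin is known to have isoforms with different first exons. The annotation gives 14 coding transcripts, and only their sum is in the table.

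The CV between libraries of one group ran from 0.798% to 8.70% over the members, with the highest value for *LAMB3* in NC. The CV that counting alone would give was 0.532% for *PLEC* and at most 2.38% (*LAMA5*). In NC the CV between libraries was below that of counting for *LAMB1* (1.31% against 1.52%), *LAMB2*, *LAMC1* and *ITGA6*, and above it for the other members. In PON1-OE it was above it for all 9.

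**Figure D2:**
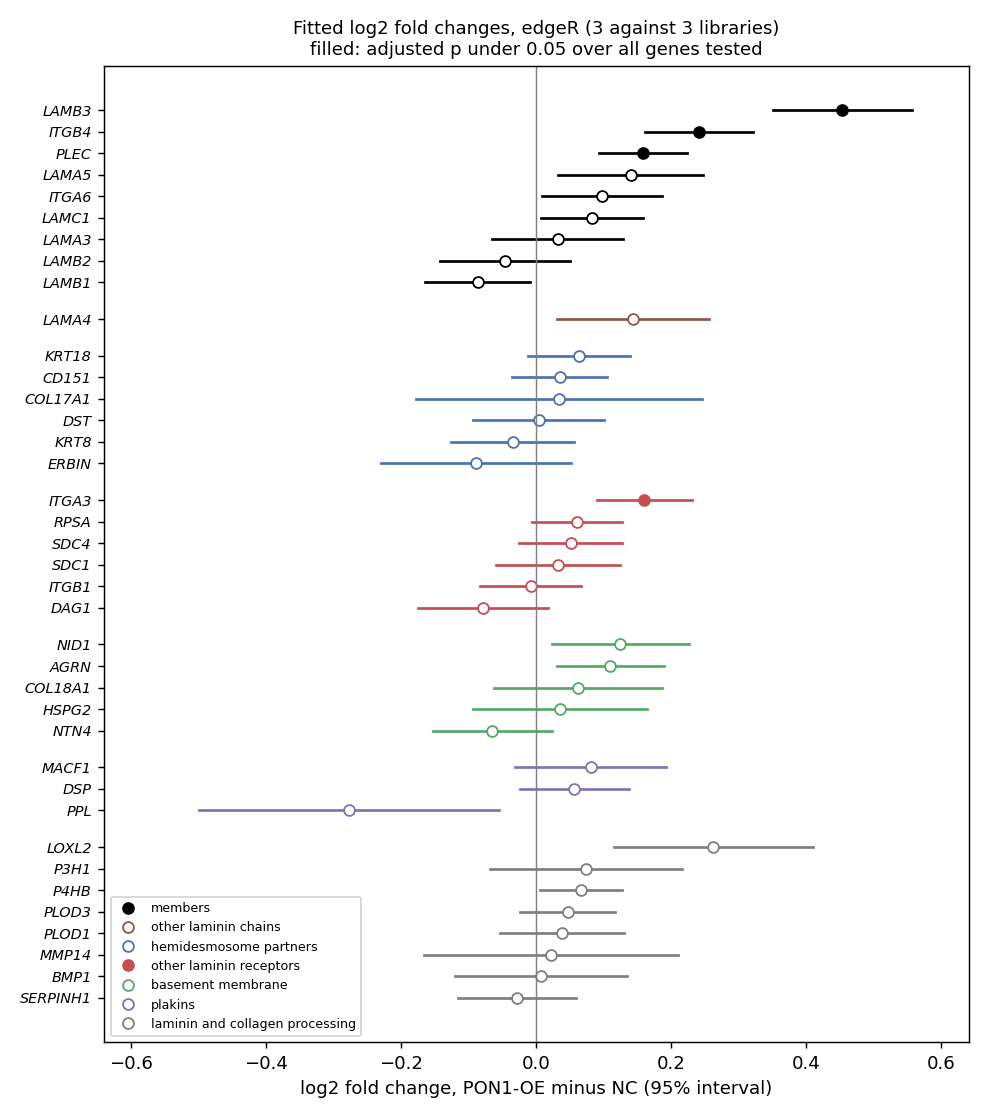
Fitted log2 fold change, PON1-OE minus NC (horizontal axis), with its 95% interval, for the 9 members and the genes of 6 related lists with a mean of at least 10 CPM. Filled points have an adjusted p under 0.05 over all genes tested; these are *LAMB3*, *ITGB4*, *PLEC* and *ITGA3*.

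Levels of different genes were compared per kb of the longest coding transcript. Over the 6 libraries the order was *PLEC* at 139.7 ± 8.87 CPM per kb, *LAMB3* at 71.7 ± 12.9, *ITGB4* at 49.8 ± 4.76, *LAMB1* at 45.1 ± 1.76 and *ITGA6* at 41.4 ± 2.30 CPM per kb. *LAMC1* followed at 36.4 ± 1.31, *LAMB2* at 20.9 ± 0.759, *LAMA3* at 14.3 ± 0.631 and *LAMA5* at 9.32 ± 0.668 CPM per kb. The SD here covers both groups. *ITGB4* and *LAMB1* were not separated, since *ITGB4* was the higher in 4 of 6 libraries, 1 of them NC and 3 PON1-OE. *LAMB1* lay above *ITGA6* in 5 of 6 libraries. Every other neighbour in this order was higher in 6 of 6 libraries.

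The low level of *LAMA3* rests on a transcript of 10661 bases. With the shorter coding transcript of 5671 bases it was 27.0 CPM per kb, which placed it above *LAMB2*. With all exons of a gene merged, *ITGA6*, *LAMC1* and *LAMB1* took ranks 4, 5 and 6. The first 3 ranks were the same under both lengths.

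**Figure D3:**
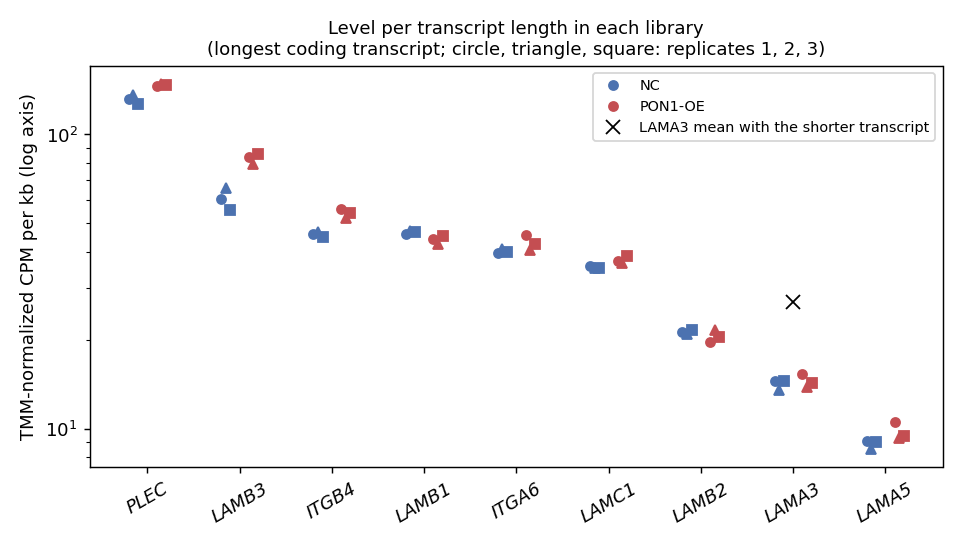
TMM-normalized CPM per kb of longest coding transcript (vertical log axis) for the 9 genes in each library, ordered by their mean. *LAMB3* lies above *ITGB4* in every library, *ITGB4* and *LAMB1* overlap, and the cross marks *LAMA3* at 27.0 CPM per kb with its shorter transcript.

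The make-up of the β chain mRNAs differed between the groups. *LAMB3* took 47.4%, 49.3% and 44.7% of the summed level per kb of *LAMB1*, *LAMB2* and *LAMB3* in NC, compared with 56.8%, 55.3% and 56.8% in PON1-OE. The share of *LAMB1* was 36.0%, 35.1% and 37.8% in NC against 29.9%, 29.6% and 29.7% in PON1-OE. That of *LAMB2* was 16.6 ± 0.910% in NC and 14.0 ± 0.977% in PON1-OE (SD, n = 3). The groups did not overlap in any of the 3 shares. As the shares sum to the whole, a higher share of *LAMB3* lowers the others, and the CPM of *LAMB2* itself overlapped between the groups. The *LAMB3* to *LAMB1* ratio was 1.301 ± 0.111 in NC and 1.89 ± 0.0212 in PON1-OE, and the *LAMB3* to *LAMC1* ratio was 1.71 ± 0.148 and 2.22 ± 0.0469. With merged exons the *LAMB3* share was 52.3 ± 2.29% in NC and 61.3 ± 0.878% in PON1-OE. These shares are built from the values that chose the genes and describe mRNA, not assembled trimers.

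**Figure D4:**
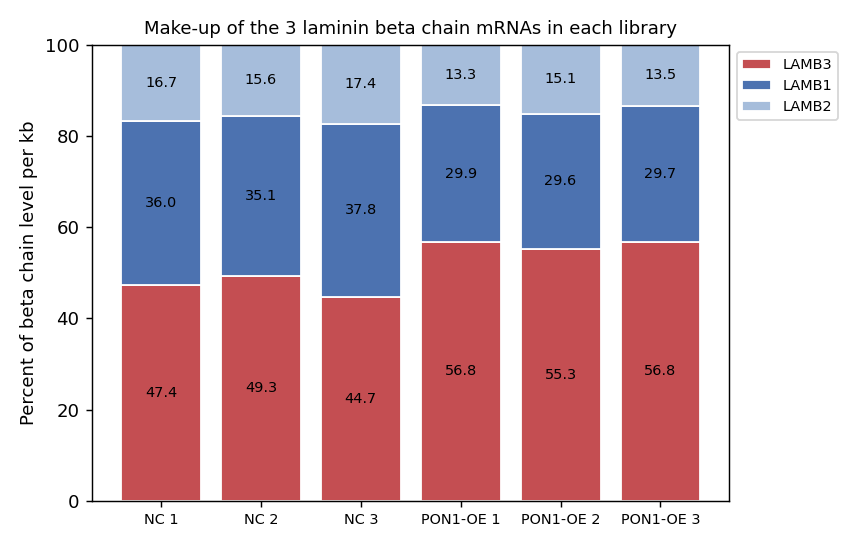
Percent of the summed β chain level per kb (vertical axis) taken by *LAMB3*, *LAMB1* and *LAMB2* in each of the 6 libraries. The *LAMB3* segment is 44.7% to 49.3% in NC and 55.3% to 56.8% in PON1-OE.

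Of the 5 other laminin chains listed, 3 were tested and none had an adjusted p under 0.05, with 1 higher at an unadjusted p under 0.05. That gene was *LAMA4*, which encodes the α4 chain typical of vessels and was at 79.8 CPM with a log2 fold change of 0.14 (SE 0.0542). Its ranges overlapped between the groups. *LAMA1* was at 0.749 ± 0.198 CPM in NC against 1.11 ± 0.245 CPM in PON1-OE, and *LAMA2* at 2.30 ± 0.333 against 2.19 ± 0.426 CPM. *LAMB4* and *LAMC3* had at most 4 counts in any library and were not tested.

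The hemidesmosome partners showed no difference past the threshold, adjusted or unadjusted, in any of the 7 genes tested of 9. Their median log2 fold change was 0.0034. *KRT8* and *KRT18*, the keratin pair of simple epithelia, were at 2381 and 1562 CPM, with log2 fold changes of -0.035 and 0.063. *CD151*, a tetraspanin that associates with laminin-binding integrins, was at 640 CPM, and *DST*, which encodes the epithelial plakin BPAG1 among other forms, at 185 CPM. *COL17A1*, the transmembrane collagen of type I hemidesmosomes, was at 13.9 ± 0.777 CPM in NC compared with 14.2 ± 1.28 CPM in PON1-OE. The epidermal keratins that hemidesmosomes hold in skin were nearly absent, with *KRT5* at 0 in all libraries and *KRT14* at no more than 1 count.

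Among 8 other laminin receptors, all tested, *ITGA3* alone had an adjusted p under 0.05. It encodes α3, which pairs with β1 to bind laminin-332 outside hemidesmosomes, and lies at 17:50055968-50090481 on the plus strand (ENSG00000005884). Its level was 932, 968 and 895 CPM in NC against 1033, 1043 and 1046 CPM in PON1-OE. The PON1-OE libraries lay close together above the NC libraries. The log2 fold change was 0.16 (SE 0.0338, 95% interval 0.0893 to 0.2298, adjusted p = 0.0294 over all genes, from the quasi-likelihood fit of edgeR). The call was kept under 7 of 12 alternatives, whose adjusted p ran from 0.000308 to 0.249. Leaving out 1 library ended it in 4 cases, with an adjusted p of 0.149 without NC replicate 1 and 0.249 without NC replicate 3. For the PON1-OE libraries the adjusted p was 0.0561 without replicate 1 and 0.16 without replicate 3. *ITGB1*, the partner of α3, was at 727 ± 6.62 CPM in NC compared with 723 ± 33.7 CPM in PON1-OE, with a log2 fold change of -0.0084 (95% interval -0.083 to 0.066). *RPSA*, *SDC4* and *DAG1*, a ribosomal protein that also binds laminin, a syndecan and dystroglycan, were at 1146, 248 and 222 CPM with log2 fold changes of 0.060, 0.051 and -0.079. The median log2 fold change of the 8 genes was 0.045.

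Of 16 other basement membrane genes 8 were tested, and none had an adjusted p under 0.05. With an unadjusted p under 0.05, 2 were higher in PON1-OE, *AGRN* (agrin, a heparan sulfate proteoglycan, 287 CPM, log2 fold change 0.11) and *NID1* (nidogen, which links laminin to type IV collagen, 135 CPM, 0.12). The groups overlapped for *NID1* but not for *AGRN*. *NTN4*, which encodes a netrin that binds laminin, was at 169.5 CPM (-0.065), and *HSPG2*, which encodes perlecan, was at 71.1 CPM (0.034). *COL4A1*, *COL4A3* and *PXDN* were at 0 in all libraries. The median log2 fold change of the 8 genes was 0.085.

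The 6 plakins, the family of plectin, were all tested, and none had an adjusted p under 0.05. *DSP* (desmoplakin, 258 CPM), *DST* and *MACF1* (89.9 CPM) had log2 fold changes of 0.056, 0.0034 and 0.080. *PPL* (periplakin, 17.9 CPM) was lower at an unadjusted p under 0.05, with no overlap between the groups and a log2 fold change of -0.28 (SE 0.107). Of 11 genes that process laminins or modify collagens, 9 were tested and none had an adjusted p under 0.05. With an unadjusted p under 0.05, 2 were higher in PON1-OE, *P4HB* and *LOXL2*. *LOXL2*, a lysyl oxidase-like enzyme that crosslinks collagen, was at 34.1 ± 0.946 CPM in NC and 40.8 ± 3.29 CPM for PON1-OE, with no overlap and a log2 fold change of 0.26 (SE 0.0711). *P4HB* (2482 CPM), *PLOD3* (539 CPM), *SERPINH1* (175 CPM) and *PLOD1* (133 CPM), which act on collagens in the endoplasmic reticulum, had log2 fold changes of 0.066, 0.046, -0.029 and 0.038. Over the 54 genes of these lists that are not members, 40 were tested, 1 had an adjusted p under 0.05, and 6 were higher and 1 lower at an unadjusted p under 0.05.

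The markers of other cell types were set beside these values. The endothelial list summed to 22.1 to 24.8 CPM in NC against 25.3 to 28.0 CPM in PON1-OE, which do not overlap. It was carried by *PECAM1*, at 13.1 ± 0.442 CPM in NC and 15.1 ± 1.14 CPM for PON1-OE with no overlap (log2 fold change 0.21, SE 0.0990), and by *KDR*, at 9.24 ± 1.82 and 10.9 ± 0.533 CPM (0.23, SE 0.131). Neither passed an unadjusted p of 0.05. The endothelial *EMCN* was at 0 and *CDH5* at no more than 1 count in every library. The leukocyte list summed to 207 to 227 CPM in NC compared with 225 to 249 CPM in PON1-OE. Nearly all of it was *CD68*, a lysosomal protein also made by other cells. Unlike the endothelial pair, *CD68* was higher at an unadjusted p under 0.05 in the quasi-likelihood fit of edgeR (log2 fold change 0.13, SE 0.0446). Its adjusted p in that fit was 0.25, and its ranges overlapped. The fibroblast list summed to 16.0 to 21.0 CPM in NC against 16.7 to 20.2 CPM in PON1-OE. The keratinocyte list shares *COL17A1*, *KRT5* and *KRT14* with the hemidesmosome partners. Its sum was 41.6 to 47.1 CPM in NC compared with 44.3 to 47.2 CPM in PON1-OE. Most of it was *KRT10*, at a mean of 30.7 CPM over the 6 libraries. The *KRT10* ranges overlapped between the groups (log2 fold change 0.046, SE 0.0748), and *KRT1* was at 0 in every library. The part of any of these in the differences above was not tested.

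The genes with the highest correlation with *LAMA3* or *LAMB3* across the 6 libraries are named here. Among 8807 genes with a mean of at least 10 CPM, Pearson's r of log2 CPM with *LAMA3* was 0.994 for *PAQR8*, 0.993 for *PPP3CA*, which encodes a catalytic subunit of calcineurin, and 0.985 for the forkhead gene *FOXK1*. With *LAMB3* it was 0.992 for *POLD4*, a subunit of DNA polymerase δ, 0.991 for *SBNO2* and 0.991 for *GM2A*, the activator of GM2 ganglioside breakdown. Of the 8807 genes, an r above 0.9 was reached by 68 for *LAMA3* and 203 for *LAMB3*. Unrelated genes can also reach such an r over 6 libraries, and how many would do so was not computed. These r values rest on 6 points in 2 groups with shared library scaling and are given as a description.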

How the data were processed

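RNA-seq libraries of poly(A) RNA were made for each group, with 3 per group. The values that the authors deposited are estimated counts for each gene with no normalization applied, and 10.5% of them were not whole. The submitters' processing notes name Bowtie2 2.2.8, HISAT2, StringTie 1.3.1 and DESeq2; their roles, the genome build, the annotation and the use of strand are not given in the sources used here. The test had been set for whole counts, so the estimated counts were rounded. In R 4.3.3, genes were filtered with filterByExpr, scaled by TMM and tested with edgeR 4.0.16 (glmQLFit and glmQLFTest, two-sided, no covariates), and the p-values of the 11958 tested genes were adjusted after Benjamini and Hochberg. Intervals are at 95%. A floor of 3 counts was 0.166 to 0.192 CPM and, like the counting CV, covers counting error only. Exact permutation tests of 3 against 3 libraries cannot go below p = 0.1 and were not used. Coordinates and lengths came from GENCODE (GRCh38) by Ensembl identifier. The fit was tested on simulated counts.

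The members and lists were chosen with earlier results of these data known. Named genes are the members, list genes with an adjusted p under 0.05, up to 4 further genes per list with the highest mean CPM, and the 3 genes most like *LAMA3* and *LAMB3*; others named were chosen after their values were seen. Single genes that these lists would cover are not reported here and are left out of their counts. As alternatives, each library was left out in turn, the tool was changed to DESeq2 1.42.0 or limma-voom (limma 3.58.1), TMM was replaced by RLE size factors, the filter was dropped or set to a minimum of 10 counts per library, and the replicate number was added as a block. Levels per kb were also computed over merged exons.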

Additional observations from a re-analysis of the deposited data

How the results depend on the processing

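Over all genes, 81 had an adjusted p under 0.05, 177 without the filter on low counts and 122 with DESeq2. The DESeq2 fit held 15542 genes, and its default filter on low mean counts could leave fewer of them for the adjustment. With each library left out, 11 to 103 genes had an adjusted p under 0.05 (34 and 11 without NC replicates 1 and 3, and 44 and 18 without PON1-OE replicates 1 and 3). A replicate block, one term for each replicate number, gave 40. The deviations of same-numbered libraries correlated at -0.0231 to 0.0205, and those of differently numbered ones at -0.0942 to 0.0714. This cannot decide whether same-numbered libraries were prepared together, since the origin of the replicates is not given. The block left 2 of the 3 members (*PLEC* was lost, log2 fold change 0.158) and 0 of 1 other list gene (*ITGA3*, adjusted p = 0.0846). Leaving out a library gave 1 to 3 members and 0 to 1 other list genes, and without the filter 2 list genes were called, *LOXL2* being added (chosen after its value was seen). The median log2 fold change of the members, 0.097, was 0.0860 to 0.138 with a library left out. *LAMA3*, at 0.031, ran from -0.0075 (PON1-OE replicate 1 left out) to 0.066, and was also below 0 when NC replicate 2 was left out (-0.0025). Among the other members no log2 fold change changed sign under the 12 alternatives. Merged exons moved 3 ranks in the order of levels per kb, and the shorter *LAMA3* transcript, chosen after seeing the data, moved 2. The causes were not tested.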
